A study of Mus musculus with 34 samples.

Results

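The loci described here were listed with an ATF3 peak and a JunD peak after 1 h of macrophage activation. No peak of Fos, Fra2 or JunB was listed there. They were selected on the peak lists of C57Bl/6EiJ macrophages alone. Peaks of the 6 lists made after Kdo2 lipid A (KLA) for ATF3, Jun, JunD, Fos, Fra2 and JunB were merged wherever they overlapped by 1 bp or more, which gave 43246 loci. A locus was kept where it held ATF3 and JunD peaks, held no Fos, Fra2 or JunB peak and overlapped no ATF3, Jun or JunD peak of vehicle-treated (Veh) cells. Of the 43246 loci, 2819 met this rule, and 519 of them (18.4%) also held a Jun peak, on which the rule set no condition.

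The peaks came from chromatin immunoprecipitation followed by sequencing (ChIP-seq) in thioglycollate-elicited macrophages (TGEMs), which are cells recruited to the mouse peritoneum by an irritant and then cultured. All samples were labelled male. The study's methods give 8 weeks as the age of the wild-type mice and 100 ng/mL as the dose of KLA, a pure ligand of the receptor TLR4, with PBS as Veh. Of 34 samples, 30 came with a peak list. In C57Bl/6EiJ TGEMs (C57Bl/6J in the methods) ATF3, Jun, JunD, Fos, Fra2, JunB, PU.1 and CEBPa were mapped after Veh and after KLA, and PPARg after Veh only. Balb/cJ TGEMs had Veh and KLA lists of ATF3, Jun, JunD, Fos and JunB and none of Fra2. PPARgKO TGEMs had ATF3, Jun and JunD lists after Veh only; the sources name no Cre driver, so which other cells lacked PPARg is not given. Each condition had 1 list, in which the authors had already combined their replicate experiments, so no value below carries a replicate error. The lists hold no expression values, so the macrophage label was not checked against marker genes.

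AP-1 is a family of dimers of basic leucine zipper proteins. Jun, JunB and JunD can pair with each other or with Fos proteins, whereas Fos proteins, among them Fra2 (encoded by Fosl2), do not pair with each other and bind DNA with a partner from outside their subfamily. ATF3 belongs to the related ATF proteins, pairs with Jun proteins and is known as an early, mostly restraining factor in macrophages that meet bacterial lipids. Fos family dimers prefer the phorbol ester response element (TRE), while ATF partners also allow the longer cyclic AMP response element (CRE). PU.1 and CEBPa are lineage factors that keep macrophage enhancers accessible, and NF-kB is the factor that TLR4 releases from its inhibitors.

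Sequences are shown for loci that carry the results below. They are the central 200 bp of the locus on the plus strand of GRCm38 (the mm10 build of the lists), read from RefSeq, with 1-based positions. Capitals mark matches to any of 14 motifs searched on both strands. The first 4 are the strongest loci with a neighbouring gene by the mean of their ATF3 and JunD count percentiles. A TRE match stands in the Tmco5 locus and a PU.1 match in the Slc3a1 and Lims1 loci, while the Foxp1 locus holds none of the motifs.
Tmco5 locus (chr2:116965379-116965578): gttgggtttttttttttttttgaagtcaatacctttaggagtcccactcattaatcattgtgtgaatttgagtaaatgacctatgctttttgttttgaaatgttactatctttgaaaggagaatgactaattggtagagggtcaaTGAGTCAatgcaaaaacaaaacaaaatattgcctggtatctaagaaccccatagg
Foxp1 locus (chr6:99489969-99490168): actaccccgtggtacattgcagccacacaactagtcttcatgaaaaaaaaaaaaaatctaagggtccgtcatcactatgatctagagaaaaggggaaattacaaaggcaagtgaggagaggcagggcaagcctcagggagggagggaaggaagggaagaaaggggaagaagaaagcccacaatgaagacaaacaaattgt
Slc3a1 locus (chr17:85019209-85019408): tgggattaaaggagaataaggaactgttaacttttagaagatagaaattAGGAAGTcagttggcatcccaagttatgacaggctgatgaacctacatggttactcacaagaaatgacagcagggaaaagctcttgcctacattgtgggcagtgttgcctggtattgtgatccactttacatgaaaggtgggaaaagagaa
Lims1 locus (chr10:58351737-58351936): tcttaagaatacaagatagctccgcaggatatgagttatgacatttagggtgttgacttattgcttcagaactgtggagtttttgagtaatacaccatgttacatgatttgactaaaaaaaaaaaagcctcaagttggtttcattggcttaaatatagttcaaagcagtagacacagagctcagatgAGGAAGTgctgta

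The next 3 lie within 1 kb of the start of a protein-coding gene. B9d2 and Ormdl3 are among the 5 strongest such loci. The Ifnb1 locus, upstream of the interferon beta gene, was added after its values were seen, because its only match is an NF-kB site.
B9d2 promoter locus (chr7:25680545-25680744): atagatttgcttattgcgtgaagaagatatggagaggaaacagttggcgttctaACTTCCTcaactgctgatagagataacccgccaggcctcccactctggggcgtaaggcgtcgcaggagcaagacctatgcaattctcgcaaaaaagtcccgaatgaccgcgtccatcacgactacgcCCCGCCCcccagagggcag
Ormdl3 promoter locus (chr11:98588191-98588390): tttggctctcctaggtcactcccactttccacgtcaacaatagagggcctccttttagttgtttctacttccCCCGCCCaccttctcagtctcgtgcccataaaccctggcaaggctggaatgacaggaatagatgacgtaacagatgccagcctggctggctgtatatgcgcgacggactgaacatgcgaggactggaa
Ifnb1 promoter locus (chr4:88522809-88523008): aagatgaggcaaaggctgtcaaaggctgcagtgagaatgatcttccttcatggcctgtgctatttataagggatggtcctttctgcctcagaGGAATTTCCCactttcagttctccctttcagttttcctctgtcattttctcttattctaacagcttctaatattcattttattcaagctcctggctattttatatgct

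The last 4 are from the few loci at which the whole rule also held in the Balb/cJ lists. TRE matches stand in the Cdkn2aipnl and Fam133b loci, an NF-kB match in the Mcm9 locus and none in the Plek locus.
Plek locus (chr11:17009122-17009321): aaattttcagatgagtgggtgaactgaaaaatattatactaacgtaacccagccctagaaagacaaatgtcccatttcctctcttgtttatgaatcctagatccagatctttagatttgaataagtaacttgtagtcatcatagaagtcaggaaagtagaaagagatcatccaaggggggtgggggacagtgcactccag
Cdkn2aipnl locus (chr11:51918225-51918424): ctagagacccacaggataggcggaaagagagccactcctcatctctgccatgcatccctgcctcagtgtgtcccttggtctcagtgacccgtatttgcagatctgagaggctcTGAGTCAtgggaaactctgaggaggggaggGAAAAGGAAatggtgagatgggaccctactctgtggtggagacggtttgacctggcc
Fam133b locus (chr5:3538866-3539065): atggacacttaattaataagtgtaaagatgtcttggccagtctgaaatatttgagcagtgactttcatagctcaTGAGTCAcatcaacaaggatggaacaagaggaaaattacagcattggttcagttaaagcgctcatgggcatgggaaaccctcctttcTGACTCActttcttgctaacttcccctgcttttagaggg
Mcm9 locus (chr10:53509188-53509387): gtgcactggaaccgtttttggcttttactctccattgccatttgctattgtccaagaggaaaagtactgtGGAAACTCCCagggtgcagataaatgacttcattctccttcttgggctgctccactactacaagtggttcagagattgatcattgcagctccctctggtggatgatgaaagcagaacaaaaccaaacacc

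Peaks at these loci were weak within the lists that selected them. The ATF3 peak counts ran from 31 to 228 with a median of 55, and the JunD counts from 120 to 756 with a median of 180. Over the whole C57Bl/6EiJ lists the median count after KLA was 277 for JunD, 74 for ATF3, 51 for Fos, 48 for Fra2 and 34 for JunB. After Veh it was 50 for JunD and 56 for ATF3. How far such differences between lists bore on which peaks were listed was not tested. Because counts were not scaled to library size, each count at a member was also ranked within its own list. The median ATF3 peak stood at percentile 30.0 (interquartile range 15.2 to 44.3) and the median JunD peak at percentile 20.5 (10.5 to 34.6). Only 2 of the 2819 ATF3 peaks and 1 of the JunD peaks reached the top 10% of their lists. Where Jun was present, its peaks had a median percentile of 17.0. These values chose the members together with the absence of the other peaks, so they are a description without a test.

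Both comparison sets were stronger. New KLA loci with ATF3, JunD and at least 1 of Fos, Fra2 and JunB numbered 6150 and had median percentiles of 51.3 for ATF3 and 50.9 for JunD. Loci with ATF3 and JunD and without Fos, Fra2 or JunB that did overlap an ATF3, Jun or JunD Veh peak numbered 3311 and had medians of 42.3 and 27.8. The plot of peak strength shows the shift for both monomers.

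**Figure D1:**
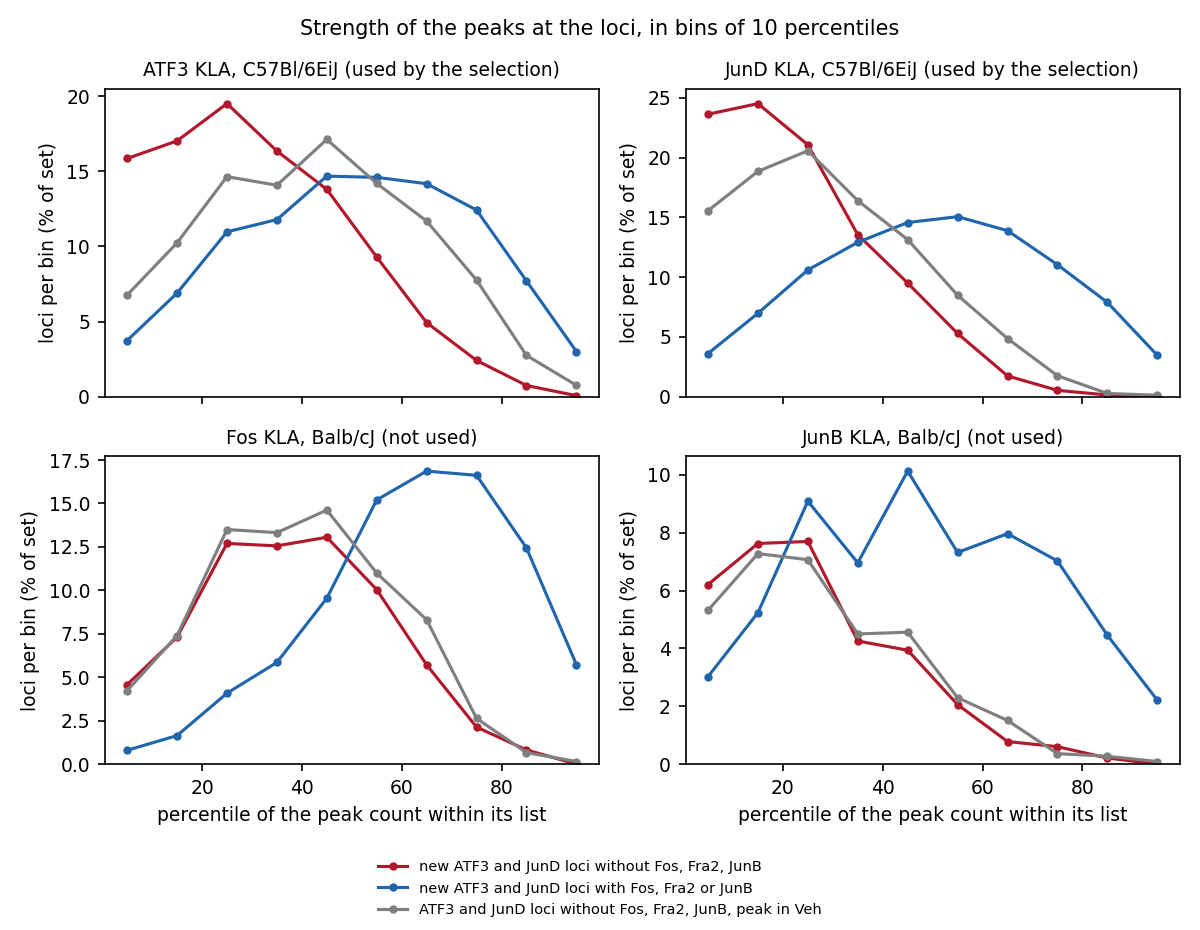
Share of loci (% of each set, y axis) by percentile of the peak count within its list (x axis, bins of 10), for the ATF3 and JunD lists that selected the loci and for the Balb/cJ Fos and JunB lists that did not; each line is 1 set of loci. The new loci without Fos, Fra2 or JunB lay mostly in the lower part of the ATF3 and JunD lists, with medians at percentiles 30.0 and 20.5.

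The ATF3 and JunD peaks of a member coincided closely. Their overlap had a median of 205 bp and was at least 100 bp in 2809 loci, and the smallest was 22 bp. Just inside the limit on resting peaks, 46 members had an ATF3, Jun or JunD Veh peak within 100 bp, the nearest at 1 bp. Just outside it, 5 loci were kept out by a Veh overlap of at most 20 bp, the smallest being 5 bp. A Fos, Fra2 or JunB KLA peak lay within 100 bp of 49 members, and the nearest was 6 bp away. The median member lay 5825 bp from the nearest such Veh peak and 5269 bp from the nearest such KLA peak. Of the 6150 new loci with ATF3 and JunD that were kept out, 2432 held Fos alone of the 3 excluded monomers, 229 Fra2 alone and 220 JunB alone. Resting peaks of Fos, Fra2 and JunB, which the rule did not use, stood at 2, 18 and 2 members.

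Comparisons with lists the rule did not use are differences between shares of loci in percentage points, with Newcombe's 95% interval. A difference was called where the interval, widened by Bonferroni over all 52 differences, left out 0. Loci are not replicates of a condition, so the intervals cover counting over loci only.

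PU.1 and CEBPa peaks appeared at these loci with KLA. After Veh, 713 of 2819 loci (25.3%) overlapped a PU.1 peak, and after KLA 1150 (40.8%) did, against 42.3% and 52.2% of all 43246 loci. PU.1 stood in both lists at 648 loci, in the KLA list only at 502 (17.8%, against 13.7% of all loci) and in the Veh list only at 65 (2.31%). The KLA and Veh lists of PU.1 were of like length, at 40645 and 41573 peaks, but their median counts were 62 and 259. What part this had in the KLA-only peaks was not tested. CEBPa stood at 176 loci (6.24%) after Veh and at 539 (19.1%) after KLA, against 21.4% and 28.7% of all loci. Here 387 loci (13.7%, against 11.3% of all loci) had CEBPa in the KLA list only and 24 (0.851%) in the Veh list only, while the lists held 14802 and 12892 peaks. Thus more members had either factor after KLA, although both shares stayed below those of all loci.

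Loci that already had AP-1 at rest differed in this respect. A KLA-only PU.1 peak stood at 7.88% of them, so the members were higher by 9.92 points (95% interval 8.25 to 11.6, called). A KLA-only CEBPa peak stood at 6.64% of them, a difference of 7.08 points (5.57 to 8.63, called). Resting PU.1 was present at 57.5% of the loci with a Veh peak and resting CEBPa at 33.9%, differences of -32.2 points (-34.5 to -29.9) and -27.7 points (-29.5 to -25.8), both called. A KLA-only peak can stand only where the factor had no resting peak, so the KLA-only shares depend on these resting shares. How much of the KLA-only differences this made up was not tested. In the KLA lists the differences were -19.1 points (-21.5 to -16.6) for PU.1 and -12.6 points (-14.7 to -10.4) for CEBPa, also called.

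Against new loci with Fos, Fra2 or JunB the members held fewer PU.1 and CEBPa KLA peaks, but not among loci of like peak strength. PU.1 KLA peaks stood at 48.6% of those loci, a difference of -7.76 points (95% interval -9.95 to -5.55, called), and CEBPa KLA peaks at 26.4%, a difference of -7.27 points (-9.07 to -5.42, called). Within 10 strata of the mean ATF3 and JunD percentile the PU.1 difference was 0.70 points (-1.79 to 3.20, not called). The CEBPa difference changed sign to 3.46 points (1.48 to 5.44, called). Among loci without a Jun peak neither difference was called, at -0.88 points for PU.1 and -0.25 points for CEBPa. KLA-only peaks were also less frequent at members than at new loci with Fos, Fra2 or JunB. They stood at 27.7% of those loci for PU.1, a difference of -9.88 points (-11.7 to -8.06, called), and at 22.1% for CEBPa, a difference of -8.42 points (-10.03 to -6.75, called). Within strata these were -0.61 points (-2.60 to 1.38) for PU.1 and 1.86 points (0.10 to 3.62) for CEBPa, neither called, and among loci without Jun the CEBPa call was lost at -1.38 points. Resting PU.1 was more frequent at members, by 3.41 points (1.52 to 5.33, called), but the call was lost within strata (1.94 points, -0.21 to 4.10), with the strongest 50% of each list (3.46 points) and over 1 kb from a start site (2.78 points).

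At 1158 members (41.1%) no PU.1, CEBPa or PPARg peak stood in either treatment. PU.1 and CEBPa were both present after KLA at 239 (8.48%). Where they were present, PU.1 peaks were of middling strength, with a median percentile of 50.8 in the KLA list, and CEBPa peaks were weaker, at 34.8. PPARg, a nuclear receptor mapped in resting cells only, had a peak at 530 members (18.8%), against 42.5% of all loci and 56.8% of the loci with a Veh peak, a difference of -38.0 points (-40.2 to -35.8, called). It did not differ from new loci with Fos, Fra2 or JunB by the rule above, at -1.26 points (-3.00 to 0.52), but among loci over 1 kb from a start site the difference was -4.09 points (-5.83 to -2.29, called).

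**Figure D2:**
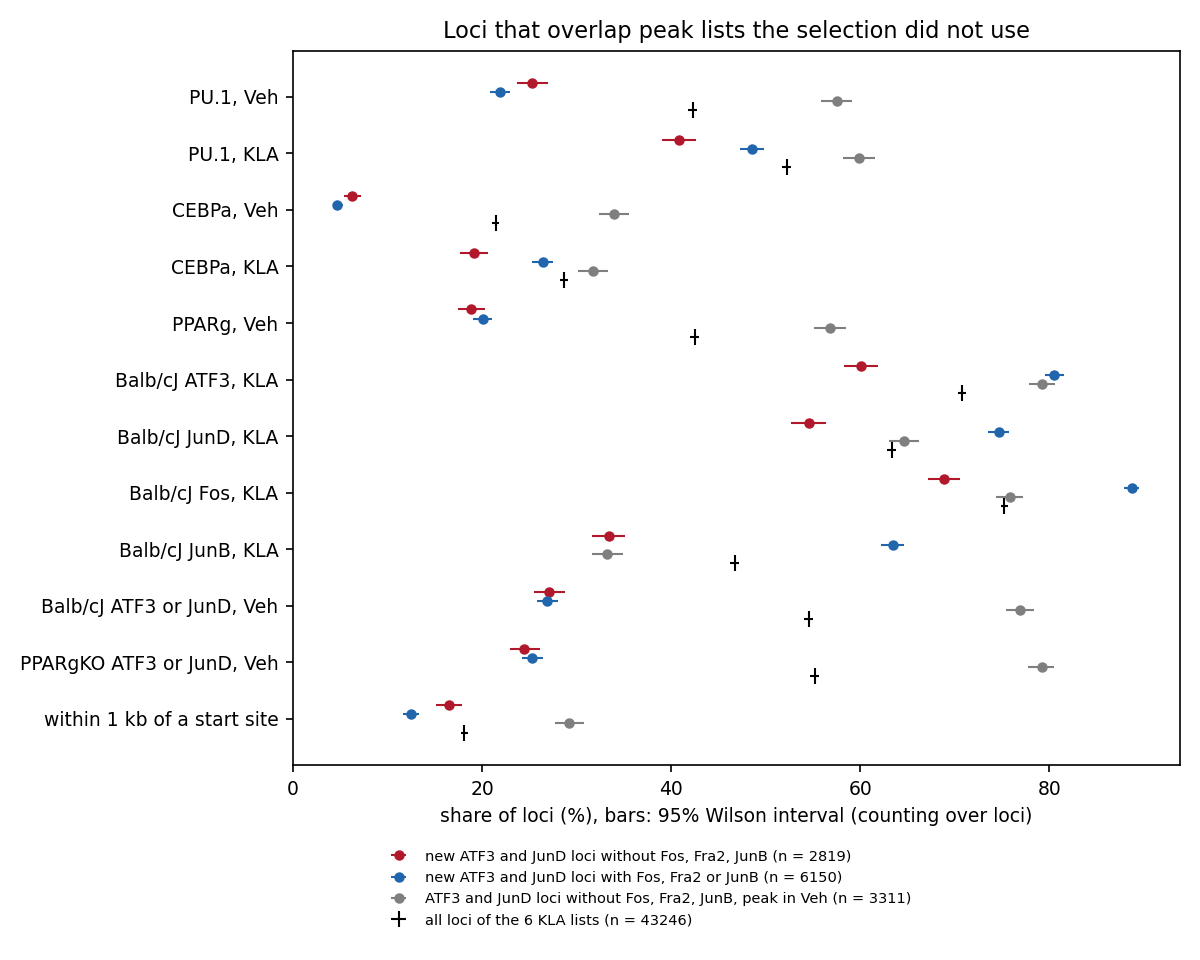
Share of loci (x axis, %) that overlapped a peak of each list the selection did not use, or lay within 1 kb of a transcription start site, for the 2819 members, the 2 comparison sets and all 43246 loci; bars are 95% Wilson intervals. PU.1 rose from 25.3% to 40.8% and CEBPa from 6.24% to 19.1% of members between Veh and KLA, and the Balb/cJ Fos list covered 68.9% of them.

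In Balb/cJ TGEMs many of these loci had ATF3 or JunD, and most had Fos. The Balb/cJ KLA lists held ATF3 at 1693 members (60.1%), JunD at 1538 (54.6%) and both at 1111 (39.4%), against 70.8%, 63.3% and 54.8% of all loci. Fos was listed at 1942 members (68.9%) and JunB at 941 (33.4%), against 75.2% and 46.7% of all loci. Either of them stood at 2076 members (73.6%), against 77.5% of all loci. Fos peaks there were of low rank, with a median percentile of 38.0 (24.5 to 50.9) in the Balb/cJ list, and JunB peaks of lower rank still, with a median of 23.0. Of the 1111 members with both ATF3 and JunD in Balb/cJ, 983 (88.5%) also had Fos.

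The Fos and JunB lists of the 2 strains differed in length. The Balb/cJ Fos list held 40459 peaks and the C57Bl/6EiJ Fos list 24365, and for JunB the lists held 21667 and 13375 peaks. With each Balb/cJ list cut to the strongest peaks up to the length of its C57Bl/6EiJ counterpart, an alternative chosen after seeing the data, Fos stood at 892 members (31.6%) and JunB at 226 (8.02%). Such a cut can only lower the counts. The same cut lists held Fos at 53.6% and JunB at 30.5% of all loci. How far the 2 strains differ and how far the lists differ in sensitivity cannot be told apart, since each strain had 1 list per monomer.

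The whole rule, as far as the Balb/cJ lists allow without Fra2, held at 59 members (2.09%, 95% Wilson interval 1.63 to 2.69) and with the cut lists at 343 (12.2%, 11.0 to 13.4). ATF3 and JunD without an ATF3, Jun or JunD Veh peak in Balb/cJ stood at 722 members (25.6%), and most of these had Fos or JunB there. At 395 members (14.01%) no AP-1 peak was listed in Balb/cJ after KLA.

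Members differed from both comparison sets in the Balb/cJ lists. ATF3 and JunD together stood at 66.3% of the new loci with Fos, Fra2 or JunB, a difference of -26.9 points (95% interval -29.1 to -24.7, called) that shrank to -6.18 points (-8.63 to -3.74, called) within strata of peak strength. Fos or JunB stood at 91.3% of them, a difference of -17.6 points (-19.4 to -15.9, called), and -7.56 points (-9.46 to -5.66, called) within strata. With the Balb/cJ Fos and JunB lists cut to the C57Bl/6EiJ lengths, Fos or JunB stood at 32.8% of members and 77.2% of the new loci with Fos, Fra2 or JunB. The difference was -44.4 points (-46.4 to -42.3, called). Peaks of Fos, Fra2 and JunB in C57Bl/6EiJ had split these sets, so the direction of the Fos or JunB differences between them followed from the selection. Against loci with a Veh peak, ATF3 and JunD together differed by -16.9 points (-19.4 to -14.4, called). Fos or JunB differed by -5.25 points (-7.39 to -3.11, called), but by 0.24 points (-1.89 to 2.37, not called) within strata and by -3.73 points (not called) among loci without Jun.

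Among the members themselves, the share seen in Balb/cJ followed the rank in C57Bl/6EiJ. When the members were split into equal terciles of the mean ATF3 and JunD percentile, ATF3 and JunD together stood at 23.1%, 37.2% and 58.0% from weakest to strongest, and Fos at 53.9%, 68.4% and 84.4%. Members with a Jun peak in C57Bl/6EiJ had Fos in Balb/cJ at 77.6% (73.9 to 81.0, n = 519) and members without it at 66.9% (65.0 to 68.8, n = 2300).

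Resting lists of the other genotypes held peaks at part of the loci called new. In Balb/cJ, 763 members (27.1%) overlapped an ATF3 or JunD Veh peak, against 54.6% of all loci. In PPARgKO TGEMs 690 members (24.5%) did, against 55.2% of all loci. Counting Jun too, 1124 members (39.9%) had a resting peak in at least 1 of the 2 genotypes. These peaks were weak, with a median percentile of 25.5 for ATF3 in PPARgKO and 27.6 for JunD in Balb/cJ. Both shares were far lower than at loci with a Veh peak in C57Bl/6EiJ, where 76.9% and 79.2% had one. The differences were -49.9 points (-52.0 to -47.6) and -54.7 points (-56.8 to -52.6), both called. Resting peaks of the same monomers set these loci apart from the members, so the direction of these differences followed from the selection. The new loci with Fos, Fra2 or JunB were close, at 26.9% and 25.3%, with differences of 0.21 points (-1.76 to 2.20) and -0.84 points (-2.74 to 1.10), neither called. Within strata of peak strength the Balb/cJ difference was 4.51 points (2.25 to 6.76, called). At 473 members (16.8%) neither genotype had a resting ATF3, Jun or JunD peak and Balb/cJ had no Fos or JunB peak after KLA.

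Most members lay away from genes' starts. Their centres fell in introns at 1662 loci (59.0%, against 54.6% of all loci) and between genes at 989 (35.1%, against 37.7%). A further 70 fell in UTRs (2.48%, against 4.26%), 36 in coding exons (1.28%, against 1.19%) and 62 in exons of noncoding transcripts (2.20%, against 2.30%). The median distance to a start site was 8004 bp. Within 1 kb of a start site lay 464 members (16.5%), against 18.1% of all loci. Loci with a Veh peak were more often promoters, at 29.2%, a difference of -12.8 points (-14.8 to -10.7, called). New loci with Fos, Fra2 or JunB were less often so, at 12.5%, a difference of 3.97 points (2.40 to 5.60, called) that became 2.86 points (1.08 to 4.64, not called) within strata of peak strength.

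**Figure D3:**
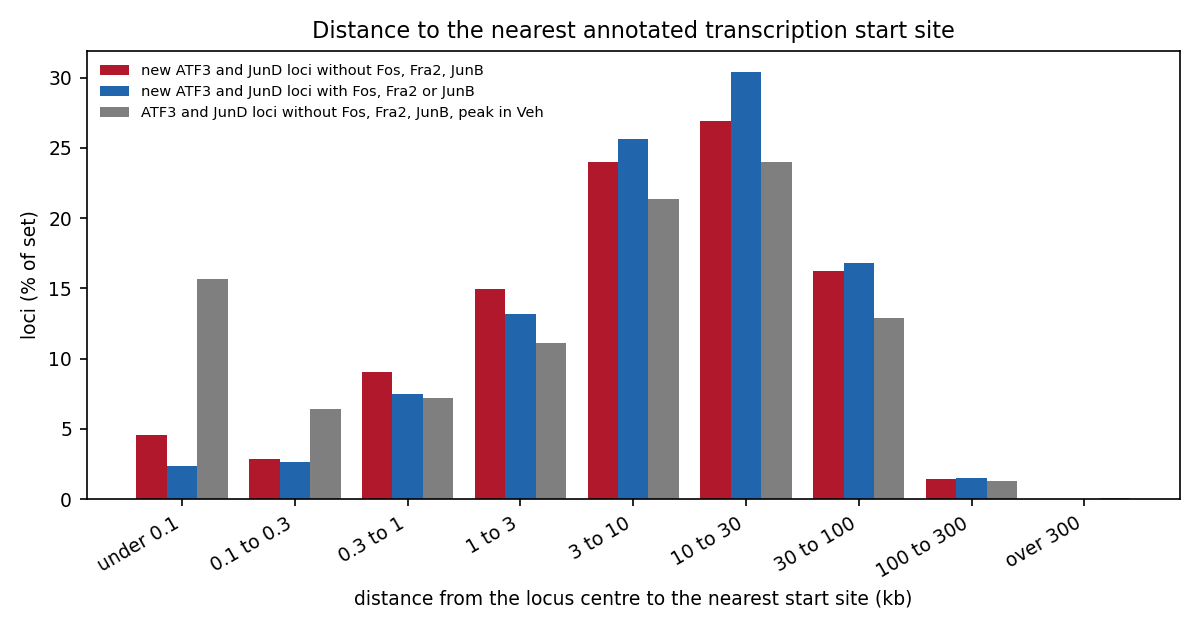
Share of loci (y axis, % of each set) by distance from the locus centre to the nearest annotated transcription start site (x axis, kb, bins of unequal width); bars are the 3 sets of loci. Of the members, 4.58% lay under 0.1 kb from a start site and 26.9% between 10 and 30 kb.

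Promoter members and the others were apart in some lists and close in others. PU.1 after KLA stood at 49.8% (45.3 to 54.3) of the 464 promoter members and 39.02% (37.07 to 41.01) of the 2355 others. Resting PPARg stood at 39.7% (35.3 to 44.2) and 14.7% (13.3 to 16.2). A resting ATF3 or JunD peak in PPARgKO stood at 37.5% (33.2 to 42.0) of the former and 21.9% (20.3 to 23.6) of the latter. The shares were close for CEBPa after KLA (18.75% and 19.19%), CEBPa after Veh (5.60% and 6.37%) and Fos in Balb/cJ (70.04% and 68.66%).

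The X chromosome was over-represented by count. Members made up 85 of its 665 loci (12.8%), whereas on the autosomes the share ran from 4.80% to 7.60%. X loci were 3.02% (95% Wilson interval 2.45 to 3.71) of the members, 1.33% of the new loci with Fos, Fra2 or JunB and 1.60% of the loci with a Veh peak. Peaks on X were weaker in the 3 lists looked at, with a median ATF3 count of 58 on X and 75 on autosomes, 216 and 278 for JunD, and 41 and 51 for Fos. The samples were male, with a single X. The part of peak strength in the X share was not tested.

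Neighbouring members were rarely close. Of 2798 neighbouring pairs on a chromosome, 209 (7.47%) lay within 10 kb of each other, and the median distance was 249828 bp.

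TRE matches were less frequent at these loci than where Fos, Fra2 or JunB was present. The TRE, TGACTCA, stood in the central 200 bp of 634 of 2818 members with sequence (22.5%), against 30.4% of all loci. It stood in 36.4% of the new loci with Fos, Fra2 or JunB, a difference of -13.9 points (95% interval -15.9 to -12.0, called), and -16.3 points (-18.5 to -14.1, called) within strata of peak strength. Loci with a Veh peak held it least, at 11.2%, a difference of 11.3 points (9.47 to 13.2, called). TRE matches were gathered at the centre of the members, with 113 sites per 1000 loci in the middle 40 bp against 5.32 in the outermost 40 bp on the left, as the plot of motif sites shows. Strong members held the TRE less often: the share was 25.9% in the weakest tercile, 23.2% in the middle and 18.4% in the strongest. It was 15.8% (12.9 to 19.2) of members with Jun and 24.0% (22.3 to 25.8) of members without.

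CRE matches, TGACGTCA, were few. They stood at 36 members (1.28%), against 1.54% of all loci. The share was 0.309% at the new loci with Fos, Fra2 or JunB, a difference of 0.97 points (0.57 to 1.47, called), and 4.93% at loci with a Veh peak, a difference of -3.65 points (-4.51 to -2.81, called). Of the 36, 19 lay at promoters, and among loci over 1 kb from a start site neither difference was called, at 0.41 and -0.90 points. The composite CEBP-ATF element, TGATGCAA, stood at 46 members (1.63%), against 2.15% of all loci, with differences of 0.74 points (0.25 to 1.31, not called) and -2.30 points (-3.12 to -1.48, called). Any of the 3 elements stood at 707 members (25.1%), against 33.6% of all loci, 37.2% of new loci with Fos, Fra2 or JunB and 19.7% of loci with a Veh peak.

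NF-kB matches ordered the 3 sets. They stood at 223 members (7.91%), against 6.23% of all loci, at 14.6% of the new loci with Fos, Fra2 or JunB and at 1.87% of the loci with a Veh peak. The differences were -6.66 points (-7.96 to -5.29, called), or -3.35 points (-4.85 to -1.86, called) within strata of peak strength, and 6.04 points (4.96 to 7.17, called).

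**Figure D4:**
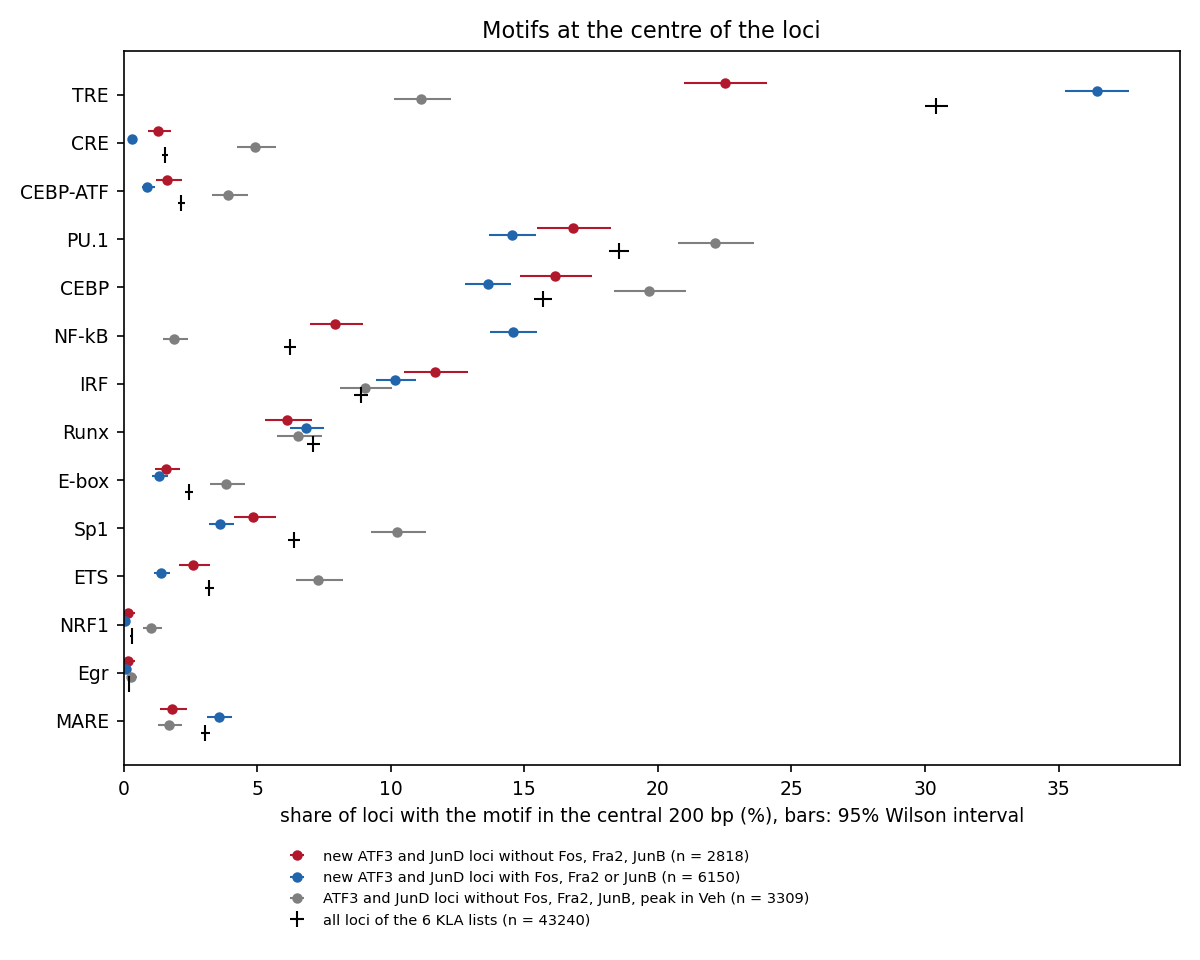
Share of loci with each motif in their central 200 bp (x axis, %) for the 14 motifs (y axis) and the 4 sets of loci; bars are 95% Wilson intervals. TRE and NF-kB shares of the members, 22.5% and 7.91%, lay between those of the new loci with Fos, Fra2 or JunB and those of the loci with a Veh peak.

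Lineage motifs were less frequent at members than at loci with a Veh peak. The PU.1 motif, AGGAAGT, stood at 474 members (16.8%), against 18.6% of all loci and 22.2% of loci with a Veh peak, a difference of -5.33 points (-7.30 to -3.35, called). The CEBP motif, TTGCNNAA, stood at 455 (16.1%), against 15.7% of all loci and 19.7% of loci with a Veh peak, a difference of -3.53 points (-5.44 to -1.60, called). Against new loci with Fos, Fra2 or JunB the differences were 2.28 points (0.67 to 3.95) and 2.52 points (0.94 to 4.15), neither called. Both were called under some alternatives, the PU.1 motif with scores of at least 830 (3.16 points) and the strongest 50% of each list (4.37 points), and the CEBP motif under 5 alternatives (2.24 to 4.52 points). Against loci with a Veh peak the PU.1 call was lost with the strongest 50% of each list (-3.47 points) and the CEBP call under 3 alternatives (-3.06 to -2.96 points). Members with a PU.1 KLA peak held the PU.1 motif at 28.3% (25.7 to 30.9), and members without one at 8.93% (7.66 to 10.4). CEBP matches stood at 41.4% (37.3 to 45.6) of members with a CEBPa KLA peak and at 10.18% (9.005 to 11.49) of those without.

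Among the other motifs, IRF sites (GAAANNGAA) stood at 11.6% of members, against 8.89% of all loci, and exceeded the loci with a Veh peak by 2.60 points (1.08 to 4.15, called), a call lost under 4 alternatives (1.13 to 2.70 points). Against new loci with Fos, Fra2 or JunB the IRF difference was 1.48 points (0.10 to 2.91, not called) and was called under 3 alternatives (2.81 to 3.40 points). Promoter elements were scarcer at members than at loci with a Veh peak. Sp1 sites (GGGCGGG) stood at 4.86%, against 6.37% of all loci, a difference of -5.38 points (-6.69 to -4.08, called) that became 0.33 points (not called) away from start sites. ETS sites (CCGGAAG) stood at 2.59%, against 3.21%, with a difference of -4.69 points (-5.77 to -3.63, called), and E-boxes (TCACGTG) at 1.60%, against 2.44%, with a difference of -2.24 points (-3.06 to -1.44, called). Neither was called over 1 kb from a start site, at -1.20 and -1.08 points. NRF1 sites (GCGCATGCG) stood at 5 members (0.177%), against 0.303%, and differed by -0.85 points (-1.27 to -0.47, called), a call lost under 4 alternatives (-0.41 to -0.26 points). Runx sites (TGTGGTT, 6.10%, against 7.09% of all loci) and Egr sites (GCGTGGGCG, 0.177%, against 0.194%) gave no called difference. The MARE, TGACTCAGC, which contains a TRE, stood at 1.81%, against 3.06%, and was lower than at new loci with Fos, Fra2 or JunB by a called difference of -1.75 points (-2.41 to -1.04), a call lost among loci without Jun (-1.20 points) and in the central 100 bp (-1.002 points). ETS sites were the only other motif called in that comparison, at 1.19 points (0.57 to 1.90). The outcome for ETS was lost under 5 of 9 alternatives. None of the 14 motifs stood at 914 members (32.4%), against 27.9% of all loci, 26.7% of new loci with Fos, Fra2 or JunB and 29.7% of loci with a Veh peak.

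**Figure D5:**
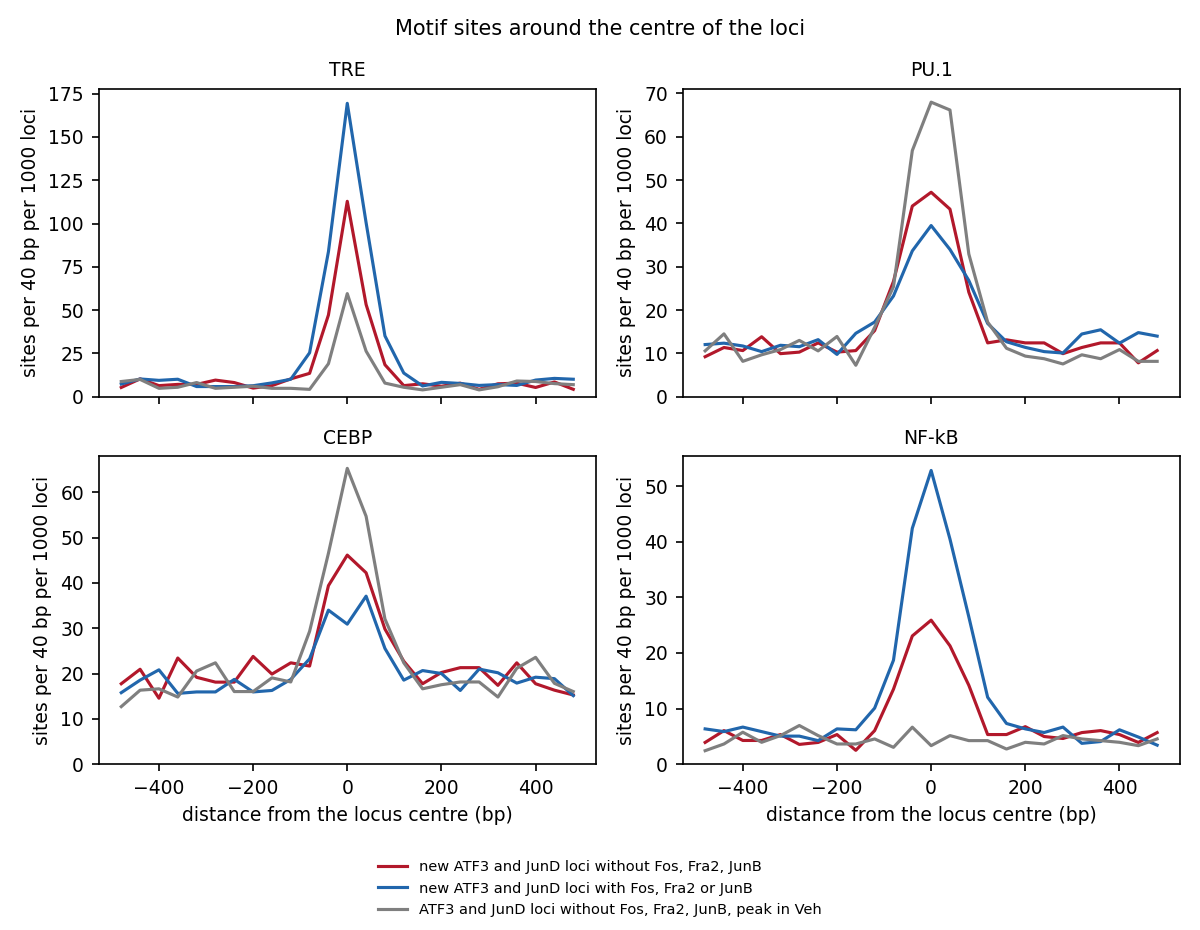
Sites of 4 motifs per 1000 loci in bins of 40 bp (y axis) by distance from the locus centre (x axis, bp); each line is 1 set of loci. At members the TRE reached 113 sites per 1000 loci at the centre, and NF-kB reached 25.9 there, against 52.8 at new loci with Fos, Fra2 or JunB and 3.32 at loci with a Veh peak.

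Words of 8 bases were counted without reference to the motif list, at members and in 4953 windows of the same width placed 2 kb to either side and free of any listed peak. Extended TREs led: ATGACTCA or its complement stood at 9.08% of members and 0.848% of windows, and ATGAGTCA at 8.59% and 0.565%. GTGACTCA, also a TRE, was next at 6.32% and 0.606%. Of the words without a TRE, AGGAAGTG, which holds the PU.1 motif, stood at 6.85% and 1.45%. TGACATCA, which none of the 14 motifs matches, stood at 179 members (6.35%) and 1.05% of windows. TGACCTCA stood at 4.86% and 1.39%. Runx sites, at 6.10% of members and 5.45% of windows, were close in both. The words are ranked by the difference in share and carry no test.

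The members were nearest to 2093 of 21840 protein-coding genes (9.58%), whereas the 43246 loci together were nearest to 10303 (47.2%). Of these genes 1635 had 1 member, 305 had 2 and 153 had 3 or more. The genes nearest to most members were Zeb2, which encodes a transcriptional repressor that helps to maintain macrophage identity, with 11 members of its 96 loci, then Dock10 (8 of 53), Inhba (8 of 35), which encodes the activin A subunit, and Sh3kbp1 (8 of 39). Cited2 (7 of 55), Ctsc (7 of 27), Foxp1 (7 of 60), Klf6 (7 of 87) and Prdm1 (7 of 56) came next. Of all 43246 loci 2819 were members, and by autosome the share ran from 4.80% to 7.60%. The ranking is by number of members, which favours genes with many loci, and no gene's share was tested. Loci were assigned without a limit of distance: the Zeb2 members named below lay 1114 and 576 kb upstream of its start.

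Gene lists drawn up with earlier results of these data known are given by their counts only. Over all protein-coding genes, 2093 of 21840 (9.58%) were nearest to a member, and 10303 were nearest to some locus. A gene can be nearest to a member only if some locus lies nearest to it, so the 9.58% is not a like base for the lists. Some locus was nearest to 80.0% to 100% of the genes of each list, against 47.2% of all protein-coding genes. Of 19 NF-kB subunits and inhibitors 11 were nearest to a member, among them Nfkb1, Rel, Rela, Nfkbia, Nfkbiz and Tnfaip3, and 18 were nearest to any locus. The count was 13 of 24 for macrophage lineage factors (33 members), 13 of 26 for actin and adhesion genes, 6 of 12 for MAP kinase phosphatases, 9 of 18 for cytokine genes and 9 of 18 for immediate-early genes. It was 9 of 20 for AP-1 and ATF genes, including Atf3, Jun, Jund and Fosb themselves. Interferon response genes had 11 of 27, surface receptors 10 of 27, TLR4 receptor and adaptors 8 of 25, chemokine genes 5 of 16 and cholesterol efflux genes 5 of 18. Integrated stress response genes had 5 of 32 (15.6%), with 28 nearest to any locus, and proteasome subunits 5 of 34 (14.7%), with 29. The lowest of the lists were heat shock and redox genes with 2 of 23 (8.70%) and lysosome genes with 1 of 29 (3.45%). All but 2 of the lysosome genes were nearest to some locus.

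Single loci show how the lists combined. The strongest member by rank lay on an unplaced scaffold without an annotated gene, with ATF3, JunD and Jun counts of 228, 756 and 89. It held a PU.1 Veh peak with a count of 1563, the highest of that list, no PU.1 KLA peak, a PPARg peak with a count of 219 and a resting Jun peak in PPARgKO with a count of 64. No Balb/cJ list held it. The member set without it numbered 2818.

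The Tmco5 locus (chr2:116965346-116965611, between genes, 86.8 kb downstream of the start) had counts of 205 for ATF3, 484 for JunD and 32 for Jun in C57Bl/6EiJ. In Balb/cJ all 5 AP-1 KLA lists held it, with counts of 85 for ATF3, 101 for JunD, 47 for Jun, 163 for Fos and 86 for JunB. No resting list and no PU.1 or CEBPa list held it.

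The Foxp1 locus (chr6:99489954-99490183, intron) had counts of 149 for ATF3 and 532 for JunD, and no Jun. It stood in the PU.1 lists of both treatments (394 after Veh, 155 after KLA), both CEBPa lists and the PPARg list. Balb/cJ held resting ATF3, Jun and JunD there, with counts of 52, 39 and 99, and PPARgKO held resting ATF3 with a count of 34, so this locus was listed as new in C57Bl/6EiJ and not in the other genotypes.

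The Lims1 locus (chr10:58351725-58351947, intron) was alike in this respect, with ATF3 and JunD at 147 and 445 in C57Bl/6EiJ and resting ATF3 at 77 in Balb/cJ and 35 in PPARgKO. The Slc3a1 locus (chr17:85019204-85019413) had ATF3 and JunD at 143 and 475 and strong PU.1 peaks, 1080 after Veh and 279 after KLA. Balb/cJ held ATF3 there at 93 and JunB at 93, and neither JunD nor Fos.

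Ago3 (chr4:126430181-126430535), an RNA-silencing gene, had the strongest promoter member, 802 bp upstream of its start, with ATF3 at 148 and JunD at 437. PU.1 (36) and CEBPa (65) peaks stood there in the KLA lists alone. At B9d2 (chr7:25680494-25680794) the locus lay 136 bp upstream of the start, with ATF3 at 99 and JunD at 368, and at Ormdl3 (chr11:98588174-98588407) it lay 922 bp upstream with 121 and 292. Both had resting ATF3 and JunD in Balb/cJ and resting ATF3 in PPARgKO. The promoter locus of Pik3cb, a phosphoinositide kinase gene, had ATF3 at 118 and JunD at 331.

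At Ifnb1 (chr4:88522784-88523033) the locus lay 134 bp upstream of the start, with an ATF3 count of 94, JunD of 271 and Jun of 24. A PU.1 peak with a count of 94 stood there after KLA and none after Veh. All 5 AP-1 KLA lists of Balb/cJ held it (ATF3 57, JunD 40, Jun 33, Fos 75, JunB 26), and no resting list of either genotype did. Ifih1, which encodes a sensor of double-stranded RNA, had a member 45 bp upstream of its start, with ATF3 at 78 and JunD at 302, an IRF and an ETS match, and PU.1 in both treatments.

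NF-kB genes gave members at Nfkb1, 1845 bp upstream of its start, with ATF3 at 124 and JunD at 318, and 48.2 kb upstream of Tnfaip3, which encodes the inhibitor A20, with 109 and 312. The Nfkb1 locus had no PU.1 or CEBPa peak and no resting peak, whereas the Tnfaip3 locus had PU.1 at 384 after Veh and 180 after KLA. Both had Fos in Balb/cJ, with counts of 55 and 88.

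Cytokine genes gave a member 30.6 kb upstream of Il12b, with ATF3 at 121 and JunD at 275, and 1 at 9.24 kb upstream of Il1b, with 125 and 264. PU.1 was listed at Il12b after KLA only (51), while Il1b had it in both treatments and had resting ATF3, Jun and JunD in Balb/cJ. Near the chemokine gene Ccl5 the members at 13.6 kb and 3.85 kb upstream had ATF3 at 80 and 45. The nearer one was held by no Balb/cJ list.

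Early response genes gave the Klf6 members 84.3 and 93.5 kb upstream, with ATF3 at 166 and 104. Other members had as nearest gene Dusp1 or Dusp6, which encode phosphatases that switch off MAP kinases. The Dusp1 locus, 10.1 kb upstream, had a TRE, ATF3 at 94 and JunD at 300. The Dusp6 locus, in an intron 121 kb downstream of the Dusp6 start, had 77 and 295 with a CEBPa peak after KLA only (98). Ier3, among the 3 members closest to the median rank, had its locus 92 bp upstream of the start with ATF3 at 49, JunD at 199 and an NF-kB match. The other 2 median loci, near Kat5 and Sh3d19, also had ATF3 at 49 and JunD at 199.

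AP-1 and ATF genes gave members 6.30 kb upstream of Fosb, with ATF3 at 81 and JunD at 234, and 19.9 kb upstream of Batf, with 71 and 253. The Fosb locus had CEBPa in both treatments (100 after Veh, 53 after KLA), PPARg at 161, and resting ATF3 at 80 in Balb/cJ and 77 in PPARgKO. The stress response genes Slc3a2 and Cebpg had members with ATF3 at 95 and 69, the lipid genes Plin2 and Abcg1 at 100 and 71, and the adhesion genes Cd44 and Vcl at 108 and 88. At Mertk, the receptor for dying cells, the member had a CRE match, with ATF3 at 105 and JunD at 213. Cd36, a scavenger receptor, had 51 and 317. The TLR4 pathway genes Tab2 and Peli1 had ATF3 at 139 and 94.

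Among stress genes the Hspa8 locus, 17.8 kb upstream of the start and in a UTR of another transcript, had ATF3 at 149 and JunD at 363. Hsp90ab1 had 39 and 253 with a TRE, Psma6 had 48 and 314, and Psmb10 had 44 and 157. The 2 Tfeb members had ATF3 at 35 and 40 and JunD at 153 and 125. The Zeb2 members named by rank lay 1114 and 576 kb upstream, with ATF3 at 84 and 95.

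Of the 59 members that met the whole rule in Balb/cJ too, the strongest was at Plek (chr11:17009101-17009342), which encodes pleckstrin, 519 bp upstream of the start. Its ATF3 and JunD counts were 116 and 289 in C57Bl/6EiJ and 77 and 60 in Balb/cJ, and PU.1 stood there after KLA only (86). The Cdkn2aipnl locus (chr11:51918203-51918446), 49.3 kb upstream of the start, had 90 and 319 in C57Bl/6EiJ and 37 and 55 in Balb/cJ. The Fam133b locus (chr5:3538841-3539090), 4.87 kb upstream and with 2 TRE matches, had 76 and 336 against 45 and 44. The Pgm2 locus, 52.1 kb upstream, had 110 and 273 against 24 and 20. The Mcm9 locus (chr10:53509160-53509414), in an intron 83.9 kb downstream of the start, had 118 and 214 against 56 and 44. Of these 5, Pgm2 and Mcm9 had resting ATF3 in PPARgKO, with counts of 21 and 16.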

How the data were processed

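The deposited files are peak lists of ChIP-seq in TGEMs, 1 per condition. Per the study's methods and the submitters' processing notes, reads were aligned by the authors to mm10 using Bowtie2 (those of Balb/cJ to a custom genome), and peaks were found with HOMER over input and kept where reproducible between replicate experiments by the irreproducible discovery rate (IDR); all replicates stand in 1 list. The authors deposited for each peak a whole-number count, not scaled to library size, and a scaled IDR score from 540 (the threshold) to 1000. List totals ran from 203 to 13809143 counts, so counts were compared only as percentiles within a list. The Balb/cJ Fos Veh list was empty and 4 inputs had no list. Peak positions are as deposited; whether starts count from 0 or 1 is not stated.

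The members and gene lists were chosen with earlier results of these data known. Lists were merged in Python 3.11.15 with pandas 2.3.3. Start sites and gene annotation came from GENCODE vM21 and sequence from RefSeq (GRCm38); a locus was assigned to the nearest protein-coding start. Shares carry 95% Wilson intervals and differences Newcombe intervals, called after Bonferroni widening over 52 differences; they cover counting over loci only. Merging, intervals and motif search were tested on simulated data. Named loci were the 10 with the highest mean ATF3 and JunD percentile, the 5 highest within 1 kb of a protein-coding start, the 2 highest per gene list, the 3 nearest the median, the 5 highest meeting the rule in Balb/cJ, and the genes nearest to most members; sequences are shown for part of them. Alternatives changed 1 choice at a time: peak centres within 100 bp, scores of at least 830, the strongest 50% of each list, excluded peaks within 200 bp, all Veh lists excluded, no Jun, central 200 bp, 10 strata of peak strength, loci over 1 kb from a start site, 3 kb promoters and a 100 bp motif window.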

Additional observations from a re-analysis of the deposited data

How the results depend on the processing

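No paired analysis was possible because each condition had 1 list, in which the replicates were already combined; for the same reason no replicate could be left out. Of 172 main values under 11 planned and 2 added alternatives, 161 kept their side of the threshold, called differences also keeping their direction. Counts of loci or motifs among them stayed within 1.5 times. Differences that were not called could change sign among the 161, as PPARg against new loci with Fos, Fra2 or JunB did, up to 0.89 points. Within strata of peak strength the difference from new loci with Fos, Fra2 or JunB turned to 0.70 points for PU.1 and 3.46 for CEBPa after KLA and from -8.42 to 1.86 for CEBPa in the KLA list only. There it also became 4.51 points for resting Balb/cJ peaks (now called) and 2.86 for promoters (no longer called), and the difference from loci with a Veh peak turned to 0.24 points for Balb/cJ Fos or JunB. Among loci without Jun the calls for PU.1 (-0.88 points) and CEBPa (-0.25) against new loci with Fos, Fra2 or JunB, and for Balb/cJ Fos or JunB against loci with a Veh peak (-3.73), were lost. Over 1 kb from a start site PPARg differed from new loci with Fos, Fra2 or JunB by -4.09 points (now called), 5 motifs in place of 11 were called against loci with a Veh peak, and Sp1 turned to 0.33 points. With the strongest 50% of each list 1575 loci met the rule. With Balb/cJ lists cut to the C57Bl/6EiJ lengths the difference from new loci with Fos, Fra2 or JunB in Balb/cJ Fos or JunB was -44.4 points in place of -17.6. Of 324 other differences under alternatives 281 kept their call, 28 lost it, 13 gained it and 2 reversed. The cause was not tested. The lists hold peaks past a threshold only, so a missing peak may be one just below it, and the depth of the libraries is not given.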
